A study of Mus musculus with 12 samples.

Results

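The caveolins and cavins are the 2 protein families that build caveolae, and 5 of the 25230 genes in the table are described here: Cav1, Cav2, Cavin1, Cavin2 and Cavin3, the members outside the muscle forms Cav3 and Cavin4. They were chosen by gene symbol, starting from the levels of Cav1 itself, which was higher in resting Piezo1 knockout macrophages and responded to Candida albicans in wild-type macrophages. The values of Cav1 are therefore given below as a description with no test, and the question asked of the data is whether its partners had the same pattern. Caveolins are hairpin proteins that sit in the inner leaflet of the plasma membrane and oligomerise there, and cavins are cytosolic proteins that coat these oligomers and bend the membrane into a flask-shaped pit. Caveolae flatten when the membrane is stretched, and they are abundant in adipocytes, endothelium and muscle. Piezo1 is a cation channel that opens on membrane tension.

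The libraries, 12 in all and 3 in each of 4 groups, hold polyadenylated RNA of macrophages grown from mouse bone marrow. The groups were Piezo1 knockout with Candida albicans, a yeast that also grows as hyphae, Piezo1 knockout with PBS, wild type with C. albicans, and wild type with PBS. All cells had been grown from flushed marrow with M-CSF, the growth factor that drives macrophage differentiation. The labels name the knockout only by the word, without the allele, a Cre driver, the fungal dose, the time or the age of the mice, and the titles of the knockout PBS libraries say DMSO where their treatment label says PBS. Nothing says that the 3 libraries of a group came from separate mice, so each p-value speaks of the scatter among libraries as labelled and not among mice.

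Piezo1 was measured at 64.6, 64.3 and 65.7 TPM in knockout macrophages with C. albicans and at 66.5, 62.4 and 67.5 TPM with PBS, against 147, 132 and 132 TPM in wild-type macrophages with C. albicans and 130.4, 134 and 139.6 TPM with PBS. TPM is a transcript level per transcript length, scaled to the same total in every library. The knockout libraries were thus all below the wild-type libraries and all still held Piezo1 reads. Reads in genes ranged between 16400119 and 25741091 per library. The first wild-type C. albicans library stood apart from the other 2 of its group, with chi-square values per degree of freedom of 14.5 and 15.3 against 1.49 to 4.40 for the other replicate pairs, so some results are also given without it. The macrophage markers were detected in 8 of 8 cases, with summed levels of 15969 to 16078 TPM in knockout macrophages with C. albicans and 15425 to 15664 TPM with PBS, against 21935 to 23370 TPM in wild-type macrophages with C. albicans and 25731 to 26277 TPM with PBS. Most of this sum was Lyz2, and its part in the caveolin levels was not tested.

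Cav2 and Cav1 are neighbours on mouse chromosome 6, both on the plus strand of GRCm38. Cav2 spans chr6:17281185-17289130 and Cav1 spans chr6:17306335-17341328, with 17204 bases between them, and the annotated transcripts Cav2-201 and Cav1-201 have 3 exons each. Cavin1 lies at chr11:100956736-100970617 on the minus strand, Cavin2 at chr1:51289126-51302960 on the plus strand and Cavin3 at chr7:105480616-105482197 on the minus strand. The 250 bases before the annotated start are shown as RefSeq gives them in build GRCm38.p6. They are given for the 2 caveolins, whose levels moved together, and for Cavin1 and Cavin2, which stayed under 1 TPM in every library. Capitals mark matches, on either strand, to the motif of AP-1 (TGANTCA), the GC box (GGGCGG), the box spelled CCAAT or the TATA box (TATAAA). The intervals are chr6:17280935-17281184 (plus) for Cav2, chr6:17306085-17306334 (plus) for Cav1, chr11:100970618-100970867 (minus) for Cavin1 and chr1:51288876-51289125 (plus) for Cavin2, each written 5′ to 3′ on the strand of its gene.
Cav2: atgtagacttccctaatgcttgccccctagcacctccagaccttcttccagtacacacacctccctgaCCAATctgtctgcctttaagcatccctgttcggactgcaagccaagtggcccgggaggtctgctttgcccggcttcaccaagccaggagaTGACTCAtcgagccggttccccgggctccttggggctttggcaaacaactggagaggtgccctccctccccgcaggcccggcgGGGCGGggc
Cav1: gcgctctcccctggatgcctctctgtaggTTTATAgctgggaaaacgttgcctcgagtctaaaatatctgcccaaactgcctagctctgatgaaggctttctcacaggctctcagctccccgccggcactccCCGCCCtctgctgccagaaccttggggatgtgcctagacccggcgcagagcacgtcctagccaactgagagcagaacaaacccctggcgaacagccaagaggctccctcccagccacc
Cavin1: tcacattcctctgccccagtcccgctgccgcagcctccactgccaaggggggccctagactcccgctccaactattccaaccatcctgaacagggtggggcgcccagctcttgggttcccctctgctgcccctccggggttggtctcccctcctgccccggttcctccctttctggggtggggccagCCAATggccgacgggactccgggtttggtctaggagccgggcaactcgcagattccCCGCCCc
Cavin2: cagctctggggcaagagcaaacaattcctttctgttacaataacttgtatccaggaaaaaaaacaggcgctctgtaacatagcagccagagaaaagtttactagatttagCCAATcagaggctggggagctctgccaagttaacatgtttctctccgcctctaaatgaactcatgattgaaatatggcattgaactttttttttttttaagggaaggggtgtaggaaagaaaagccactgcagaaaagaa
The Cav2 window held an AP-1 match beginning 92 bases before the start, a CCAAT box at 182 bases and a GC box at 9 bases. The Cav1 window held a GC box at 118 bases and a TATA-type match at 221 bases, and shared with Cav2 only the GC box among the motifs searched. The Cavin1 window held a GC box at 7 bases and a CCAAT box at 63 bases, and the Cavin2 window a CCAAT box at 140 bases. Over 32536 RefSeq promoter windows of the same length, 6.73% held the AP-1 motif, 33.0% the GC box, 33.8% the CCAAT box and 12.3% the TATA box, the AP-1 motif being the least common of those found here. A kappaB-type motif, held by 0.360% of windows, was in none of these 4. GC content was 62.0% for Cav2, 59.6% for Cav1, 67.6% for Cavin1 and 40.4% for Cavin2, beside a median of 52.4% over all windows. These matches describe letters in a window and were not tested for binding.

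Of the 5 members, Cav2 and Cav1 reached the level needed for testing (at least 1 TPM in at least 3 libraries), and Cavin1, Cavin2 and Cavin3 did not. Averaged over the 12 libraries, Cav2 was at 103 TPM, above 86.9% of the 11283 tested genes, and Cav1 at 27.2 TPM, above 59.4% of them. Cavin1 averaged 0.583 TPM. The macrophages thus held caveolin transcripts well above the filter and cavin transcripts below it. In bulk RNA, fewer cells that express a gene and less RNA per cell cannot be told apart.

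**Figure D1:**
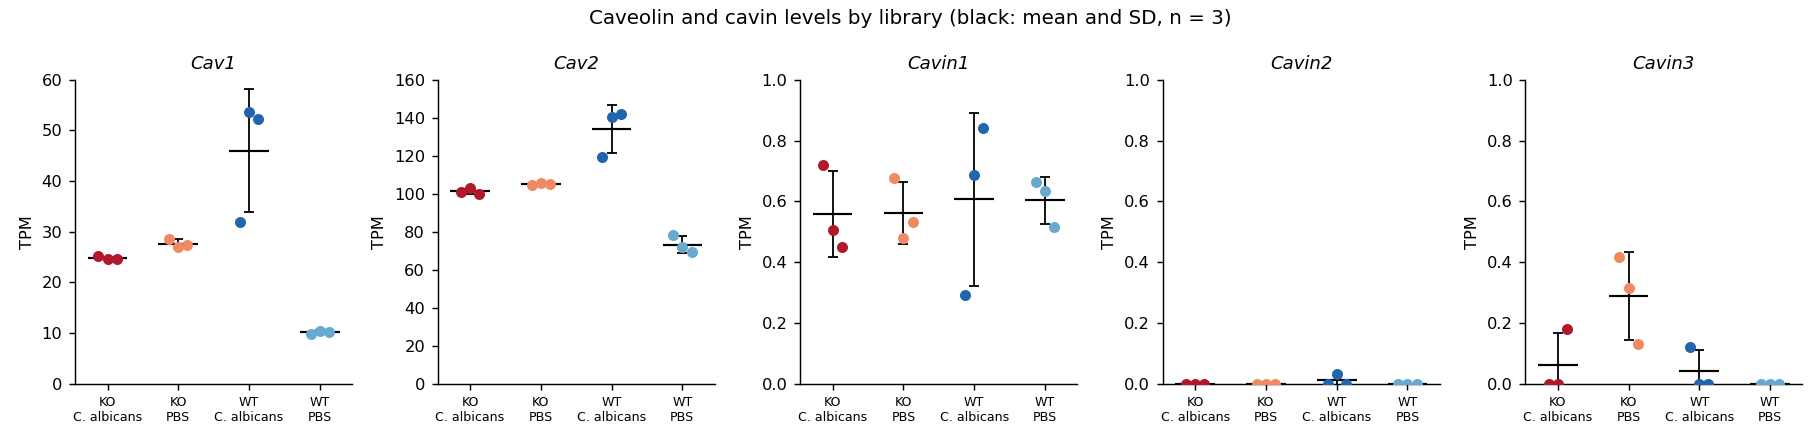
TPM of each caveolin and cavin in the 12 libraries (points), by group, with the mean and SD of 3 libraries in black; the vertical scales differ. Cav1 and Cav2 are lowest in wild-type macrophages with PBS and highest in wild-type macrophages with C. albicans, and the 3 cavins stay under 1 TPM in every library.

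Caveolin-1, the main structural protein of non-muscle caveolae, gives the pattern to which its partners are compared. Cav1 was measured at 25.1, 24.7 and 24.6 TPM in knockout macrophages with C. albicans and at 28.7, 26.9 and 27.4 TPM with PBS. In wild-type macrophages it was at 32.0, 53.7 and 52.3 TPM with C. albicans and at 9.81, 10.5 and 10.3 TPM with PBS. All 6 knockout libraries lay between the wild-type PBS and the wild-type C. albicans libraries, with no overlap on either side. Among all tested genes, 18.3% likewise had every C. albicans library above every PBS library in wild type, 10.1% had every knockout library above every wild-type library with PBS, and 33.3% had every knockout library below every wild-type library with C. albicans. The mean was 4.51-fold higher with C. albicans than with PBS in wild type, 2.72-fold higher in knockout than in wild type with PBS, and 0.540 of the wild-type mean in knockout with C. albicans. Without the first wild-type C. albicans library, which had the lowest Cav1 level of its group, the wild-type fold over PBS was 5.20. In the wild-type contrast, the authors' deposited table gives Cav1 a log2 fold change of 2.26.

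Caveolin-2 forms hetero-oligomers with caveolin-1 and needs it to leave the Golgi for the plasma membrane. Cav2 was measured at 101.1, 102.9 and 100.05 TPM in knockout macrophages with C. albicans and at 104.6, 105.7 and 105.3 TPM with PBS. In wild-type macrophages it was at 119.6, 140.6 and 141.8 TPM with C. albicans and at 78.2, 71.8 and 69.6 TPM with PBS. As for Cav1, the knockout libraries all lay between the wild-type groups, and no wild-type library overlapped a knockout library. The knockout PBS mean lay 52.6% of the way between the wild-type PBS and wild-type C. albicans means for Cav2, and 48.8% of the way for Cav1. With C. albicans, the knockout mean lay 46.3% of the way for Cav2 and 40.9% for Cav1.

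With C. albicans, Cav2 rose in wild-type macrophages, averaging 134 ± 12.5 TPM, against 73.2 ± 4.48 TPM with PBS (SD, n = 3 each), a log2 difference of (TPM + 1) of 0.86 with SE 0.06 (limma adjusted p = 2.2e-07). Without the first wild-type C. albicans library, the Cav2 mean with C. albicans was 141 TPM, 1.93-fold that with PBS. Of all genes tested in this contrast, 44.4% passed the adjusted p threshold of 0.05, and 16.1% passed it as higher. The authors' deposited table, which matches this contrast, gives Cav2 a log2 fold change of 0.96 with SE 0.0631 and an adjusted p of 9.37e-50. In knockout macrophages Cav2 averaged 101 ± 1.44 TPM with C. albicans and 105 ± 0.569 TPM with PBS (SD, n = 3 each), a log2 difference of -0.05 with a 95% interval of -0.18 to 0.08 (limma adjusted p = 0.645). Of all genes, 7.08% passed in the knockout contrast. The 3 C. albicans libraries of the knockout lay all below the 3 PBS libraries for Cav2 and for Cav1, as they did for 21.1% of all genes.

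Between genotypes Cav2 differed in opposite directions in the 2 treatments. With PBS it was higher in the knockout, at 105 ± 0.569 TPM, against 73.2 ± 4.48 TPM in wild type (SD, n = 3 each), a log2 difference of 0.52 with SE 0.06 (limma adjusted p = 5.8e-05). Of all genes, 32.3% passed in this contrast, and 6.14% passed as higher. That share of higher calls depends on scaling, with 693 genes higher and 2948 lower as deposited, and 1577 higher and 1608 lower after median-ratio scaling. With C. albicans Cav2 was lower in the knockout, at 101 ± 1.44 TPM, against 134 ± 12.5 TPM in wild type (SD, n = 3 each), a log2 difference of -0.40 with SE 0.06 (limma adjusted p = 0.000221), where 39.9% of all genes passed and 27.5% passed as lower.

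The response to C. albicans differed between genotypes for Cav2, with an interaction (the knockout response minus the wild-type response) of -0.91 on the log2 scale and SE 0.09 (limma adjusted p = 2.9e-05). This passed for 13.9% of all genes, 6.33% with a negative sign. Cav2 kept its call in all 21 alternative settings in the wild-type response and in both genotype contrasts, in all 20 for the interaction, and in none of 21 did the knockout response pass. The combination of 5 outcomes seen for Cav2 (higher, not called, higher, lower, negative) was put together after its values were seen, and 42 of the 11283 tested genes had it, which is 0.372%. The 5 comparisons share libraries, so their values stand side by side and do not count as separate evidence. For Cav1 the same 5 log2 differences were 2.03, -0.15, 1.36, -0.83 and -2.18, each of the same sign as for Cav2.

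**Figure D2:**
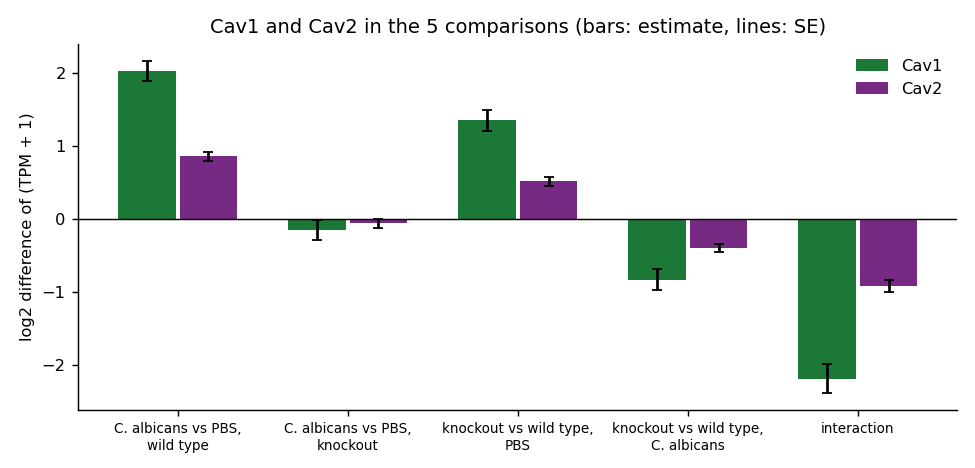
Log2 differences of (TPM + 1) for Cav1 and Cav2 in the 5 comparisons, as bars with the SE of the limma estimate. The 2 genes share a sign in each comparison, and the Cav1 bar is the longer in each; the Cav1 bars are a description, since its values led to the choice of the family.

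The 2 caveolins did not keep a fixed proportion. The ratio of Cav2 to Cav1, both as TPM, was 4.02 to 4.17 in knockout macrophages with C. albicans and 3.65 to 3.93 with PBS. In wild-type macrophages it was 3.74, 2.62 and 2.71 with C. albicans and 7.98, 6.86 and 6.78 with PBS. The 3.74 was that of the first wild-type C. albicans library, and the other ratios of that group lay below every knockout ratio. Resting wild-type macrophages had the highest ratio of the 4 groups, without overlap with any other group. The group means were 4.08 ± 0.0771 and 3.81 ± 0.144 in the knockout with C. albicans and with PBS, and 3.02 ± 0.623 and 7.20 ± 0.670 in wild type with C. albicans and with PBS (SD, n = 3 each). These ratios contain Cav1 and carry no test.

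**Figure D3:**
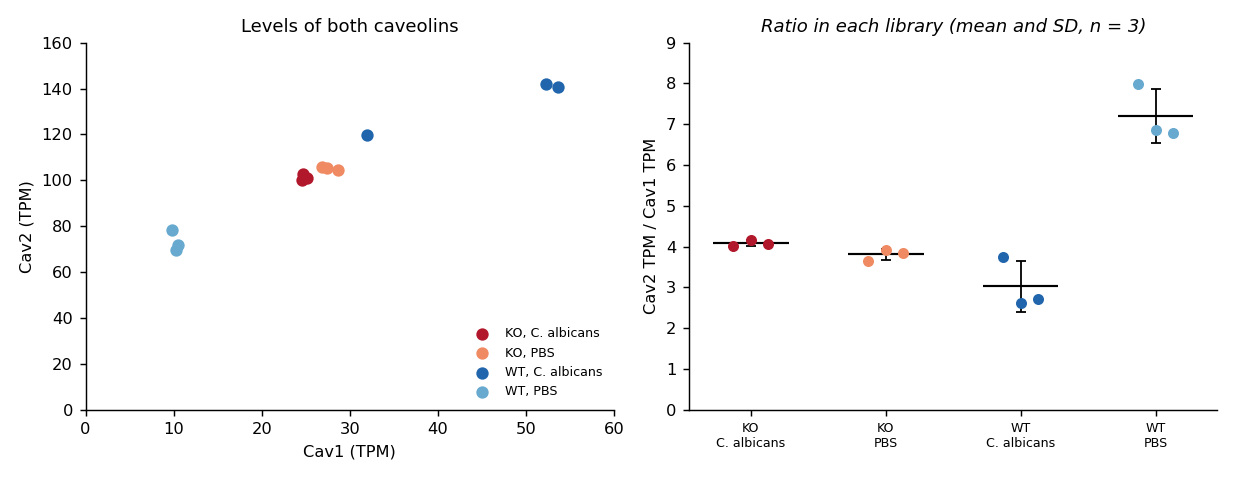
Left, Cav2 against Cav1 TPM in each of the 12 libraries; right, their ratio in each library with the mean and SD of 3 libraries. The knockout libraries of both treatments sit together between the wild-type groups, and the ratio in wild type with PBS, 6.78 to 7.98, lies above that of every other group.

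Cavin-1, without which caveolae do not form, was not called in any of the 5 comparisons, by voom on the recovered reads or by limma without the filter. Cavin1 was at 0.720, 0.507 and 0.451 TPM in knockout macrophages with C. albicans and at 0.677, 0.481 and 0.530 TPM with PBS. In wild-type macrophages it was at 0.290, 0.688 and 0.840 TPM with C. albicans and at 0.662, 0.634 and 0.516 TPM with PBS. The 4 groups overlapped throughout, on 13 to 44 reads per library, all under the level needed for the main test. Fitted on the recovered reads with limma's voom, the Cavin1 log2 difference was -0.03 in the wild-type response, with a 95% interval of -0.75 to 0.69 (limma adjusted p = 0.953), and 0.02 between knockout and wild type with PBS, with an interval of -0.69 to 0.72 (limma adjusted p = 0.980). Without the first wild-type C. albicans library, a setting added after the data were seen, the wild-type difference was 0.41, with an interval of -0.21 to 1.03 (limma adjusted p = 0.288). That interval holds an increase the size of the one of Cav2, 0.86, but not one the size of the one of Cav1, 2.03. Those 2 sizes are on the log2(TPM + 1) scale with all 12 libraries, unlike the interval. Over the alternative settings they were 0.82 to 0.95 for Cav2 and 1.91 to 2.27 for Cav1. A difference the size of the Cav2 genotype difference with PBS also lies inside the interval of Cavin1. The authors' deposited table gives Cavin1 a log2 fold change of 0.10 with SE 0.374 and an adjusted p of 0.875.

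Cavin-2 and cavin-3, which bind cavin-1 and shape or move caveolae, were at the floor. Cavin2 had 1 read in all 12 libraries together, in the second wild-type C. albicans library, and 3 reads would correspond to 0.0842 to 0.133 TPM. Cavin3 had 0, 0 and 2 reads in knockout macrophages with C. albicans and 5, 3 and 1 reads with PBS, against 1, 0 and 0 reads in wild-type macrophages with C. albicans and none with PBS. The 3 knockout PBS libraries were the only group with Cavin3 reads in every library. Their levels were 0.418, 0.313 and 0.131 TPM, around the 0.251 to 0.397 TPM that 3 reads represent, so no fold is given. Without the filter on low values, Cavin3 passed between knockout and wild type with PBS (limma adjusted p = 0.0166), a call that rests on 9 reads against 0. In that setting 3379 of 17155 genes passed, 607 of them as higher. No other difference in Cavin2 or Cavin3 passed. The knockout response and the interaction of Cavin3 had unadjusted limma p-values of 0.00996 and 0.0229 (limma adjusted p = 0.126 and 0.148), on the same few reads. Of the muscle members, Cav3 had no read in any library and Cavin4 had 2 to 11 reads per library.

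Among 10 genes for proteins that work at caveolae, 5 were measured well enough to test: Ehd1, Ehd4, Pacsin2, Dnm2 and Flna. Ehd2, the ATPase of the caveolar neck, had 0 to 7 reads per library, and Ehd3, Pacsin1, Pacsin3 and Ror1 were also below the filter. Of the 5, 2 rose and 2 fell with C. albicans in wild type, 1 rose in the knockout, and 3 were lower in the knockout in each treatment. Over all genes, 16.1% rose and 28.3% fell in the wild-type response, and 3.94% rose and 3.14% fell in the knockout response. Lower in the knockout were 26.1% of all genes with PBS and 27.5% with C. albicans. The median log2 difference of these 5 was 0.08 in the wild-type response, beside -0.07 over all tested genes, and -0.23 between genotypes with C. albicans, beside -0.05. Voom tested 6 of the 10 genes. It called 4 in the wild-type response, 3 of them higher (Ehd1, Pacsin2 and Flna), and 2 in the knockout response, both higher (Ehd1 and Flna). Of 11961 genes, voom called 2554 higher in the wild-type response and 769 in the knockout response.

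Ehd1, an ATPase of recycling endosomes that can take the place of Ehd2 at caveolae, responded most. It was at 97.6, 98.9 and 100.5 TPM in knockout macrophages with C. albicans and at 43.7, 43.0 and 44.0 TPM with PBS, against 172, 212 and 217 TPM in wild-type macrophages with C. albicans and 45.6, 43.6 and 43.4 TPM with PBS. The genotypes overlapped with PBS and were far apart with C. albicans. Ehd1 rose by 2.15 on the log2 scale in wild type (limma adjusted p = 8.2e-11) and by 1.17 in the knockout (limma adjusted p = 1.4e-07), with an interaction of -0.98 (limma adjusted p = 4.0e-05). Unlike Cav2, Ehd1 had a genotype difference with PBS of -0.02, with a 95% interval of -0.17 to 0.13 (limma adjusted p = 0.864).

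Filamin A, which ties caveolin-1 to actin filaments, averaged 144 ± 1.86 TPM in knockout macrophages with C. albicans and 134 ± 4.14 TPM with PBS, against 224 ± 11.6 TPM in wild-type macrophages with C. albicans and 168 ± 0.495 TPM with PBS (SD, n = 3 each). Flna rose in wild type by 0.41 (limma adjusted p = 3.5e-06). In the knockout its response was 0.10 (limma adjusted p = 0.144), called higher by voom and without the first wild-type C. albicans library. Between genotypes Flna was lower in the knockout, with log2 differences of -0.32 with PBS (limma adjusted p = 7.7e-05) and -0.63 with C. albicans (limma adjusted p = 2.2e-07). The PBS difference of Flna was thus opposite in sign to that of the caveolins, and it was -0.05 (limma adjusted p = 0.544) once the trend of fold change on gene length was removed. Ehd4, a relative of Ehd1, fell by 0.43 in wild type with C. albicans (limma adjusted p = 8.4e-05) and was lower in the knockout with PBS, at -0.29 on the log2 scale (limma adjusted p = 0.00264). Between genotypes with C. albicans the Ehd4 difference was 0.15 (limma adjusted p = 0.0616). It was called higher in the knockout after median-ratio or upper-quartile scaling, with voom, with the length trend removed and without the first wild-type C. albicans library. The interaction of Ehd4 was positive, 0.43 (limma adjusted p = 0.00433), a sign that passed for 7.52% of all genes. Pacsin2, which curves the caveolar membrane, was lower in the knockout, with log2 differences of -0.23 with C. albicans (limma adjusted p = 0.00166) and -0.16 with PBS (limma adjusted p = 0.0168), the PBS call being lost after median-ratio or upper-quartile scaling, with voom, with the length trend removed and without the second PBS library of either genotype (limma adjusted p up to 0.678 over the alternatives). Dnm2, the dynamin that cuts membrane necks, fell by 0.14 in wild type (limma adjusted p = 0.0383), a call that held in 8 of 21 alternatives and was lost without any single wild-type library other than the first C. albicans library, and without the first knockout PBS library (limma adjusted p up to 0.297 over the alternatives).

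Src, Fyn, Yes1 and Abl1 encode kinases that phosphorylate caveolin-1, and Yes1, with 0 to 6 reads per library, was not tested. Of the other 3, 1 rose and 1 fell in the wild-type response, where 16.1% of all genes rose and 28.3% fell. Src was at 47.8, 43.5 and 48.0 TPM in knockout macrophages with C. albicans and at 36.4, 38.2 and 39.3 TPM with PBS, against 70.4, 78.9 and 82.7 TPM in wild-type macrophages with C. albicans and 36.5, 38.6 and 40.8 TPM with PBS. It was alike in range between genotypes with PBS and lower in every knockout library with C. albicans. Src rose by 0.98 in wild type (limma adjusted p = 1.2e-07) and by 0.28 in the knockout (limma adjusted p = 0.0192), the knockout call being lost without the first PBS library or the first or last C. albicans library of the knockout (up to limma adjusted p = 0.0819). The interaction for Src was -0.70 (limma adjusted p = 0.000333). Abl1 was lower in the knockout with PBS, with a log2 difference of -0.44 (limma adjusted p = 2.2e-05), and was as small as -0.19 among the alternatives, all of which kept the call. With C. albicans the Abl1 difference was -0.25 (limma adjusted p = 0.000869), a call lost with the length trend removed. Fyn was not called by limma on the deposited scale in any of the 5 comparisons, but was called higher in the knockout with C. albicans in 6 of 21 alternatives, among them voom and both other scalings, and without the first wild-type or the first knockout C. albicans library (limma adjusted p 0.00666 to 0.363).

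**Figure D4:**
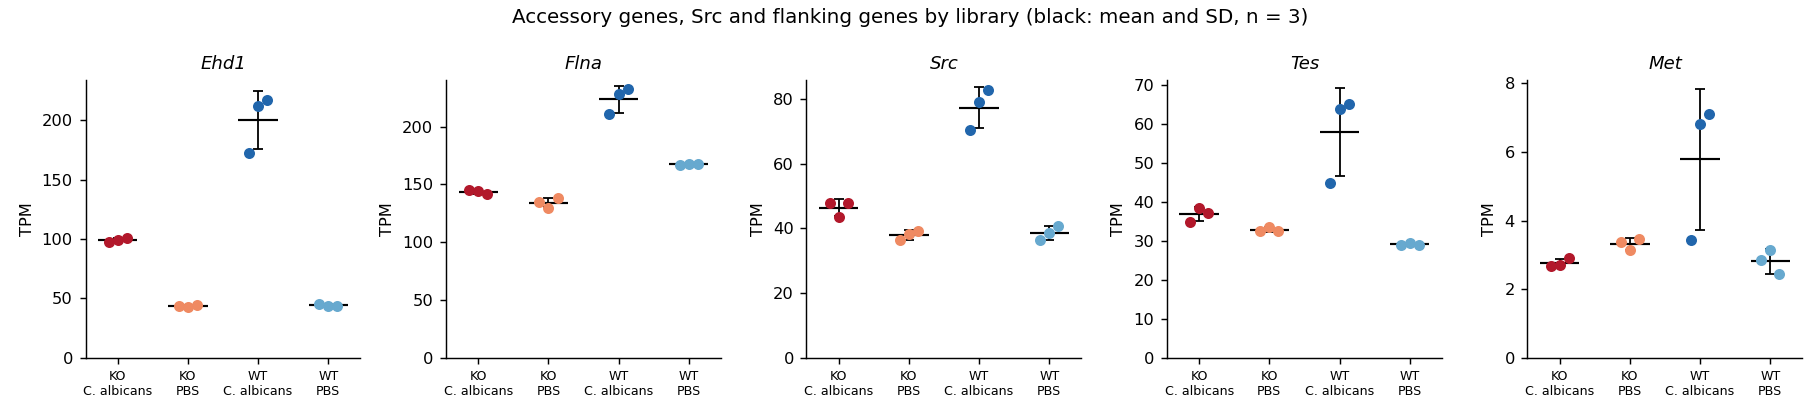
TPM of Ehd1, Flna, Src, Tes and Met in the 12 libraries (points), by group, with the mean and SD of 3 libraries in black. All 5 have their highest mean in wild-type macrophages with C. albicans, and Ehd1, Src and Met overlap between the genotypes with PBS.

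Flotillins and stomatins are membrane proteins, many of which scaffold membrane domains without caveolins, and 5 were tested, Stoml3 being below the filter. In wild type with C. albicans 1 rose (Stom, by 0.11) and 3 fell, where 16.1% of all genes rose and 28.3% fell. Stoml1 fell by 0.41 (limma adjusted p = 9.0e-05) and was the only 1 of the 5 that fell after median-ratio scaling. Flot1 fell by 0.24 and Flot2 by 0.20 (limma adjusted p = 0.0119 and 0.00762), and both calls were lost after median-ratio scaling, that of Flot1 also without the second PBS or the second C. albicans wild-type library (limma adjusted p up to 0.0967 for Flot1 and 0.102 for Flot2 over the alternatives). None of the 5 had an interaction that passed limma's threshold, where 13.9% of all genes did, so this count is near the background. There 1 had an unadjusted p under 0.05 (Stoml1), Stom passed as negative with the length trend removed, and voom called none. In the knockout response Stoml1 fell (limma adjusted p = 0.0406), a call lost after median-ratio or upper-quartile scaling. With C. albicans Stom was lower in the knockout and Stoml1 higher (limma adjusted p = 0.000289 and 0.0360), where 27.5% of all genes were lower and 12.4% higher. None was called higher in the knockout with PBS, by limma or by voom, where limma called 6.14% of all genes higher. The 2 of 5 at an unadjusted p under 0.05, Stom and Stoml2, were both lower. Their log2 differences were -0.10 (limma adjusted p = 0.0206) and -0.21 (limma adjusted p = 0.111). Stom was thus called lower, as 26.1% of all genes were. That call was lost after median-ratio or upper-quartile scaling, with voom and with the length trend removed.

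Clathrin and its adaptor AP-2 drive the other main route of coated endocytosis, and all 8 genes were tested. In wild type with C. albicans 5 fell and none rose, where 28.3% of all genes fell and 16.1% rose, with a median log2 difference of -0.12, beside -0.07 over all genes. After median-ratio scaling 3 of the 8 fell, where 2091 of 11283 genes did, and with voom 3 fell, where 2282 of 11961 did (Ap2a1, Ap2a2 and Ap2m1 in each case). In the knockout response none of the 8 passed limma's threshold, where 7.08% of all genes did, so this count is near the background. There 3 had an unadjusted p under 0.05 and none was called by voom. Between genotypes with PBS, 1 was higher and 4 were lower, but 3 were higher and 1 was lower after median-ratio or upper-quartile scaling. Calls over all 11283 genes moved the same way. They were 693 higher and 2948 lower as deposited, 1577 and 1608 after median-ratio scaling, and 1293 and 1853 after upper-quartile scaling. Between genotypes with C. albicans, Clta, Ap2m1 and Ap2s1 were higher in the knockout and Cltc and Ap2b1 lower, where 12.4% of all genes were higher and 27.5% lower. Voom called 7 of the 8 in that contrast, 5 of them higher, where it called 4919 of 11961 genes, 2333 of them higher. Cltc, the clathrin heavy chain, averaged 231 ± 4.56 TPM in knockout macrophages with C. albicans and 234 ± 5.91 TPM with PBS, against 276 ± 7.21 TPM in wild-type macrophages with C. albicans and 278 ± 10.9 TPM with PBS (SD, n = 3 each), and was lower in the knockout in both treatments under each of the 3 scalings (limma adjusted p = 0.000263 with PBS and 0.000115 with C. albicans), but not once the trend on gene length was removed (limma adjusted p = 0.442 with PBS and 0.166 with C. albicans).

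The genes on either side of the caveolin pair were set beside it because Cav2 and Cav1 are adjacent. Tes, which encodes a LIM-domain protein of focal adhesions, ends 175359 bases before Cav2, and Met, the receptor of hepatocyte growth factor, starts 122020 bases after Cav1. Of 6 neighbours, 4 rose with C. albicans in wild type (Tes, Tfec, Capza2 and Met), against 16.1% of all genes. St7 was also called higher there by voom, and without the first wild-type C. albicans library (limma adjusted p = 0.000478). In the knockout response none of the 6 passed, where 7.08% of all genes did, so this count is near the background. There 1 of 6 had an unadjusted p under 0.05 and 1 was called by voom (Capza2 for both). With C. albicans all 6 were lower in the knockout than in wild type, against 27.5% of all genes, although St7 lost its call without the second or the last wild-type C. albicans library (limma adjusted p up to 0.0602). The median log2 difference of the 6 was 0.56 in the wild-type response and -0.64 between genotypes with C. albicans. With PBS none was called higher in the knockout by limma or by voom, where 6.14% of all genes were called higher by limma, so a count of 0 of 6 is near the background. Of the 6, 1 had an unadjusted p under 0.05, and this was Mdfic, which was lower, with a log2 difference of -0.23 (limma adjusted p = 0.000373). Mdfic is known as a Piezo channel-binding protein.

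Tes was at 34.9, 38.6 and 37.3 TPM in knockout macrophages with C. albicans and at 32.6, 33.6 and 32.5 TPM with PBS, against 44.9, 63.9 and 65.4 TPM in wild-type macrophages with C. albicans and 29.0, 29.5 and 28.9 TPM with PBS. Every knockout PBS library lay above every wild-type PBS library for Tes, as for the caveolins, but by little. The log2 difference with PBS was 0.17 (limma adjusted p = 0.245), and it passed without the first wild-type C. albicans library (limma adjusted p = 0.00706) and with only the libraries compared. Its interaction was -0.79 (limma adjusted p = 0.00416). Met, at 2.76 ± 0.123 TPM in knockout macrophages with C. albicans and 3.32 ± 0.170 TPM with PBS, averaged 5.79 ± 2.05 TPM in wild-type macrophages with C. albicans and 2.81 ± 0.358 TPM with PBS (SD, n = 3 each). Its interaction of -0.98 (limma adjusted p = 0.0253) held in 12 of 20 alternatives and was lost without the last wild-type PBS library, the second or last wild-type C. albicans library, the first or last knockout PBS library, or the first or second knockout C. albicans library (limma adjusted p up to 0.0637). Without the first wild-type C. albicans library, 4 of the 6 neighbours had a negative interaction that passed, against 2 with it, while over all genes the share of such calls was 9.39% without that library and 6.33% with it.

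**Figure D5:**
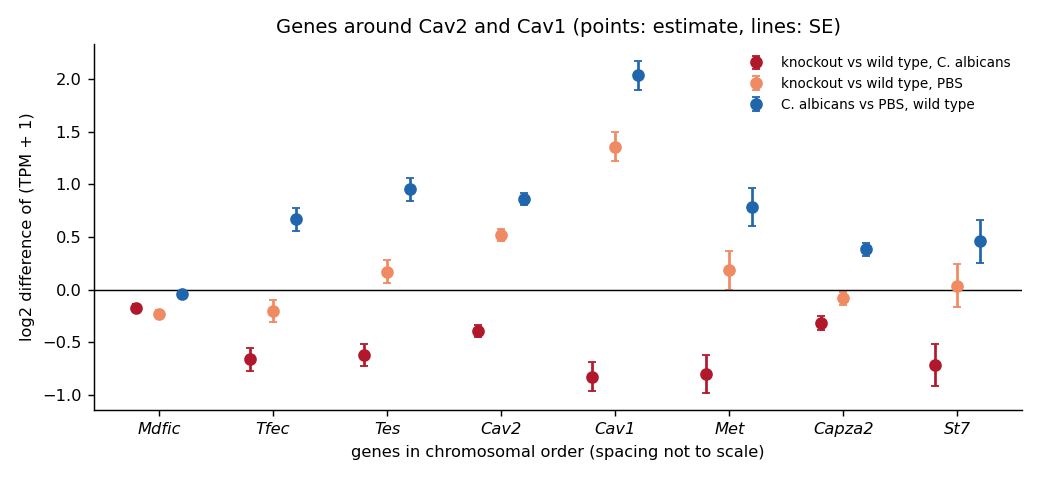
Log2 differences of (TPM + 1) with SE for Cav2, Cav1 and 6 flanking genes in chromosomal order, for 3 comparisons. Cav1 and Cav2 stand above 0 in knockout against wild type with PBS, at 1.36 and 0.52, and Met and Tes at 0.18 and 0.17. None of the 6 flanking genes was called higher there, as 6.14% of all genes were, except Tes in 2 of 21 alternatives.

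Annotation limits how reads at these loci can be read. In GENCODE M21 the antisense gene Gm15581 spans both Cav2 and Cav1 on the minus strand, and it has no row of its own in the table. Another antisense gene, 9330175M20Rik, covers Cavin2, and Gm45667 overlaps Cavin3. The strand setting of the counting is not stated in the sources, so reads from a gene and its antisense partner cannot be told apart.

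The 5 tested genes nearest to Cav1 over the 12 libraries, by the root mean square difference of centred log2(TPM + 1), were 3830403N18Rik, S100a4, AA467197, Rpph1 and S100a8, at 0.282, 0.325, 0.348, 0.364 and 0.371. Cav2 came 23rd of 11282, at 0.447. Ranked by nearness to Cav2 instead, Cav1 came 8912th of 11282, at the same 0.447. S100a4, a calcium-binding protein of motile cells, had 966 or more reads in every library and was at 623 ± 18.8 TPM in knockout macrophages with C. albicans and 496 ± 11.2 TPM with PBS, against 693 ± 71.7 TPM in wild-type macrophages with C. albicans and 273 ± 10.9 TPM with PBS (SD, n = 3 each). The other 4 had at most 65 reads in any library. The measure counts amplitude as well as direction, and the differences of Cav2 were smaller than those of Cav1.

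Caveolins are abundant in several cell types that could accompany marrow cultures, so their markers were read in the same libraries. All 8 fibroblast and stroma markers were under 1 TPM in every library, with summed levels of 1.53 to 2.12 TPM in knockout macrophages with C. albicans and 1.45 to 1.92 TPM with PBS, against 1.66 to 2.40 TPM in wild-type macrophages with C. albicans and 1.98 to 2.75 TPM with PBS. Adipocyte markers summed to at most 0.239 TPM, with Plin1, Cidec and Lep at 0 in all libraries, and smooth muscle and pericyte markers to at most 5.07 TPM, with Rgs5 at 0. Those sums did not have the order of the caveolins. Endothelial markers summed to 39.3 to 40.8 TPM in knockout macrophages with C. albicans and 38.2 to 40.1 TPM with PBS, against 48.2 to 57.0 TPM in wild-type macrophages with C. albicans and 42.4 to 45.5 TPM with PBS. Most of that sum was Kdr, and 4 of the 8 endothelial markers were under 1 TPM in every library. The endothelial sum was highest in wild type with C. albicans, as both caveolins were, and with PBS it was lower in the knockout, where both caveolins were higher. Its part in the caveolin levels was not tested.

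The neutrophil markers had the group order of Cav1, with sums of 3.06 to 5.26 TPM in knockout macrophages with C. albicans and 4.19 to 5.63 TPM with PBS, against 6.34 to 8.07 TPM in wild-type macrophages with C. albicans and 2.11 to 2.75 TPM with PBS. Most of it was S100a8, which is also among the genes nearest to Cav1. Ly6g and S100a9 were at 0 in every library, and 4 of the 6 markers were under 1 TPM throughout. Their part in the caveolin levels was not tested. Megakaryocyte and platelet markers, nearly all Pf4, summed to 72.7 to 82.9 TPM in knockout macrophages with C. albicans and 70.2 to 71.2 TPM with PBS, against 79.6 to 119 TPM in wild-type macrophages with C. albicans and 75.6 to 81.4 TPM with PBS, and their part was not tested either. Mast cell markers stayed at or under 2.94 TPM in sum, lymphocyte markers at or under 3.58 TPM and dendritic cell markers at or under 0.813 TPM.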

How the data were processed

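Polyadenylated RNA of 12 libraries was grouped by the genotype and treatment labels. Per the submitters' processing notes the tools were CASAVA 1.8, cutadapt 2.6, STAR 2.7.5a and DESeq2 1.34.0 with build mm10; no source here gives the counter, its strand setting or the annotation. The authors deposited 1 table of 25230 genes with TPM per library and 1 comparison: its mean normalized signal, log2 fold change, SE, Wald score (the deposited test statistic), p-value and adjusted p-value. That comparison is not named, and its deposited log2 fold changes matched wild type with C. albicans over PBS (median absolute difference 0.00106 over 10362 genes, against 0.142 for the knockout).

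From these, log2(TPM + 1) of the 11283 genes that reached 1 TPM in 3 or more libraries was fitted with limma 3.58.1 in R 4.3.3, with 1 mean per group, a variance trend and 8 residual degrees of freedom. Tests were two-sided with Benjamini-Hochberg adjustment over all tested genes and a threshold of 0.05; fold changes on this scale understate those of low genes. Read numbers were recovered from TPM and the mean signal: 100% of 171648 nonzero values came within 0.01 of whole reads. They were fitted with limma's voom (11961 genes) as an alternative, which called 4836 genes in the wild-type response, against 5006. Other alternatives were a pseudocount of 0.1, no filter, median-ratio and upper-quartile scaling, no variance trend, a replicate block, only the libraries compared, each library left out, removal of a loess trend (span 0.3) on gene length and, added after seeing the data, voom without the first wild-type C. albicans library. The fit was tested on simulated data. Read numbers carry counting error, and 3 reads were taken as the floor.

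The members and lists were chosen with earlier results of these data known. Genes named are the 5 members, Piezo1, list members that passed (up to 4 per list and comparison by smallest p) or fell below the filter, and the 5 genes nearest to Cav1; Flot1, Fyn, Capza2, St7 and other list members outside that rule were named after their values were seen. 1 list member is not reported here. Promoter sequences and motif shares come from RefSeq, positions from GENCODE M21.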

Additional observations from a re-analysis of the deposited data

Results flagged for a closer look

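For Cav2 the knockout response to C. albicans minus the wild-type response was -0.91 on the log2 scale (limma adjusted p = 2.9e-05), a tested difference between the genotypes in the same contrast. Among list genes the same difference was -0.98 for Ehd1, -0.70 for Src, -0.31 for Flna, -0.79 for Tes and -0.98 for Met, each a smaller or opposite response in the knockout. It was positive for Ehd4 at 0.43, Ap2a2 at 0.28, Clta at 0.16 and Ap2m1 at 0.13. Ehd4 and the 3 clathrin-route genes fell in wild type and did not pass in the knockout, but the calls of these differences held in 11 of 20 alternatives for Clta and in 6 of 20 for Ap2m1, and were lost for both after median-ratio scaling, with voom, without the variance trend and with the length trend removed. Both were also lost without the second or the last wild-type C. albicans library, the first or second knockout PBS library or the last knockout C. albicans library, and that of Ap2m1 also without the first or last wild-type PBS library or the first or second knockout C. albicans library (limma adjusted p up to 0.0815 for Clta and 0.122 for Ap2m1). The wild-type call of Clta held in 17 of 21 alternatives.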

How the results depend on the processing

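Cav2 kept its direction and its side of the threshold in every alternative run: its log2 difference was 0.82 to 0.95 in the wild-type response, 0.48 to 0.62 between genotypes with PBS, -0.47 to -0.31 between genotypes with C. albicans and -0.99 to -0.87 for the interaction, and its knockout response of -0.06 to -0.00 passed in none (limma adjusted p 0.216 to 0.986). For Cav1, the genotype difference with PBS was 1.43 with a pseudocount of 0.1, 1.45 with median-ratio scaling, 1.43 with upper-quartile scaling, 1.54 with voom and 1.43 with the length trend removed, against 1.36, and its knockout response was -0.10 with the length trend removed, against -0.15. Genes called in the knockout response numbered 1350 with only the libraries compared, against 799, and 420 to 1487 with 1 library left out, the highest without the first wild-type C. albicans library. It fell to 464 and 420 without the first and last knockout PBS libraries and to 468, 532 and 441 without the first, second and last knockout C. albicans libraries. Interaction calls numbered 1036 (without the first knockout PBS library) to 2531 (without the first wild-type C. albicans library), against 1563. Calls between genotypes with PBS numbered 1803 with the length trend removed, against 3641; the cause of these changes was not tested. Scaling moved the direction of calls: wild-type response 2559 higher and 2091 lower with median-ratio scaling, against 1814 and 3192; knockout response 605 and 177, against 445 and 354; genotypes with C. albicans 2468 and 2245 with upper-quartile scaling, against 1402 and 3101; interaction 669 and 938 with median-ratio scaling, against 849 and 714. A replicate block gave 4919, 716, 3547, 4402 and 1418 calls in the 5 comparisons, against 5006, 799, 3641, 4503 and 1563. Same-numbered libraries of different groups correlated at -0.09 to 0.09 in their deviations from the group means, and differently numbered ones at -0.07 to 0.08. Those ranges overlap and cannot settle whether the numbers pair the libraries. The block changed no call of Cav2 and ended calls of Dnm2, Stoml1 and Ap2m1. For Cavin1 the voom difference in wild type was -0.03, and 0.41 without the first wild-type C. albicans library. For Cavin2 and Cavin3 depth is the limit, with 1 and 12 reads in all.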
